A study of Mus musculus with 2 samples.

Results

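Genes of the RNA exosome and of ribosome biogenesis were examined for occupancy by YY1, a zinc finger transcription factor, in fat cells of mice after cold exposure and at room temperature. The set holds 57 of the 21883 nuclear protein-coding genes of the GRCm38.p6 annotation (the assembly that mm10 names). Its genes were chosen by symbol: Exosc, Utp, Nop, Rrp or Rpp followed by a number, plus Wdr75, Wdr43, Wdr12, Wdr36, Wdr3, Fbl, Dkc1, Nhp2, Gar1, Ncl, Npm1, Bop1 and Pes1. A gene was counted as having a peak when a listed summit lay within 1 kb of either gene end or inside the gene.

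Mature adipocytes were isolated from inguinal (subcutaneous) fat; the mice were wild-type C57 males aged 8 to 10 weeks. Mice of the cold group had been kept under cold stress for 7 days, and mice of the other group had been raised at room temperature. Each condition has 1 library, so no comparison between them has a replicate check, and the sources used here do not say whether animals were pooled. The libraries are labelled ChIP-seq, while the protocols describe CUT&Tag, in which a tethered transposase tags DNA beside the antibody.

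The cold list holds 1259 entries and the room temperature list 165, with a median of 20 and 13 fragments at the summit. Fragment numbers were recovered from the deposited fold enrichments and p-values, and absolute depths are unknown. The lowest background in each list, divided by its narrowest peak width, was 1.05 times as high in the cold library as in the other. This is only a rough guide to relative depth. Peak names hold a 4 in the cold list and a 30 in the room temperature list, with no explanation in the sources used here. Intervals below are exact 95% intervals that cover counting error only. None of 8 adipocyte marker genes had a listed peak in the cold library, nor in the room temperature library. Peak lists do not measure expression, so the cell type label was not checked by markers.

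Ribosomes are built in the nucleolus, where a long precursor RNA is transcribed, cut, chemically modified and packed with proteins. The small subunit processome folds and cleaves the part that becomes the small subunit, while small nucleolar ribonucleoproteins (snoRNPs) guide the chemical modifications. Another set of factors matures the large subunit, RNase MRP cuts between the parts, and the RNA exosome, a multi-subunit complex that degrades RNA from its end, trims the products. YY1 is known to bind promoters of broadly expressed genes through a sequence with the core ATGGC.

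In the cold library 11 of the 57 genes had a YY1 peak (19.3%, interval 10.0 to 31.9), against 6.43% of all protein-coding genes. They were Exosc2, Wdr75, Utp20, Rrp15, Bop1, Exosc10, Fbl, Rpp25l, Nop53, Nop56 and Wdr43. In the room temperature library 0 of the 57 genes had one, against 0.864% of all protein-coding genes, and its exact interval reached 6.27% (5.26% if a count of 0 is taken to allow 3 genes). This count therefore does not set the genes below the share over all genes. Since none had a room temperature peak, no gene of the set could be in both lists. When only the 165 strongest cold entries were kept, to match the length of the room temperature list, 2 of the 57 genes had a peak (3.51%), against 0.905% of all genes. Those genes were Exosc2 and Wdr75. No interval was computed for this share, and as it rests on 2 genes it is not read as an excess over all genes.

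**Figure D1:**
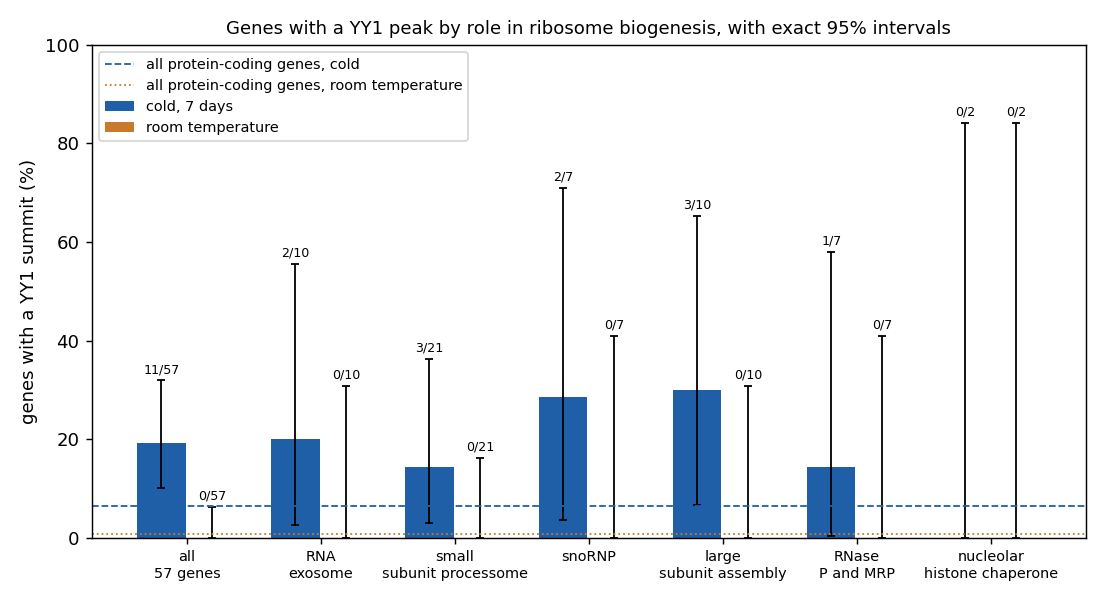
Share of genes with a YY1 summit (percent) for all 57 genes and for each role, in the cold library (left bars) and the room temperature library (right bars). Error lines are exact 95% intervals, labels give the counts, and horizontal lines mark the shares of all protein-coding genes. The cold share of the whole set (11 of 57) stands above the cold line, and 0 of 57 have a room temperature peak.

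The strongest peak of the set lay at Exosc2, which encodes a cap subunit of the exosome that contacts the RNA on its way in. The cold peak (mm10 chromosome 2, 31670389 to 31670937) carried 75 fragments (59.0 to 94.0) on a background of 0.57 fragments, a fold enrichment of 48.4 in the authors' deposited list. Its summit lay outside the gene, 73 bp before the start, and within 1 kb of no other protein-coding gene end. Among the 1259 cold entries it ranked 30 by fragments and 15 by q-value. The room temperature list had no entry there, and its nearest summit was 1254.7 kb away.

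Exosc10 encodes the nuclear exonuclease that associates with the exosome. It had 21 fragments (13.0 to 32.1) after cold at a peak on chromosome 4 (148558360 to 148558683), inside the gene and 91 bp after its upstream start. The same summit lay 825 bp from an end of the kinase gene Mtor, but 109928 bp from the nearest annotated Mtor start. The other 8 exosome genes, Exosc1 and Exosc3 to Exosc9, had no listed peak in either library. In all, 2 of 10 exosome genes had a cold peak (20.0%, 2.52 to 55.6).

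Stretches of gene-strand sequence around the starts are given for 6 genes with a cold peak, to show where letters of the YY1 core stand. They are RefSeq sequences of GRCm38.p6 and run from 150 bases before the start to 29 bases past it. Only the Exosc2 summit lies inside a printed stretch. The summits of the other genes lie past the printed bases, so a missing core there does not describe the sequence under the summit. The short second stretch of Exosc10 lies between the annotated starts of that gene. Capitals mark the 8-letter core AANATGGC on either strand or, in Wdr75, the letters ATGGC on the other strand.
Exosc2 (chr2:31670565-31670744, plus strand): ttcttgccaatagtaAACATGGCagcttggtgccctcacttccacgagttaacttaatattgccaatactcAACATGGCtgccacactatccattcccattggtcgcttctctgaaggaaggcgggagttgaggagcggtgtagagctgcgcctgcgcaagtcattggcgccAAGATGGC
Exosc10 (chr4:148558269-148558448, plus strand): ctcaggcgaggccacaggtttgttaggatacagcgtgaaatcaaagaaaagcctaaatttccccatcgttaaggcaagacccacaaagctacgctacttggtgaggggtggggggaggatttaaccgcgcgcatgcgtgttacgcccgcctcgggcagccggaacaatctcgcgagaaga
Exosc10 (chr4:148558463-148558492, plus strand): gaAAAATGGCgcctcccagtccccgggagc
Wdr75 (chr1:45795016-45795195, plus strand): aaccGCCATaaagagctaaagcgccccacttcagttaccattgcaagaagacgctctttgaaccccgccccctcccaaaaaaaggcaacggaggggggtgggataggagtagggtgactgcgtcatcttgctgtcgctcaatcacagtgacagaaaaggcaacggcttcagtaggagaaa
Utp20 (chr10:88826785-88826964, minus strand): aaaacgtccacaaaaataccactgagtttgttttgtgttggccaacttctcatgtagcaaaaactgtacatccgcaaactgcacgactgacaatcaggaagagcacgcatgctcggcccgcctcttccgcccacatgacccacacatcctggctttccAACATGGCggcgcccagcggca
Rrp15 (chr1:186749329-186749508, minus strand): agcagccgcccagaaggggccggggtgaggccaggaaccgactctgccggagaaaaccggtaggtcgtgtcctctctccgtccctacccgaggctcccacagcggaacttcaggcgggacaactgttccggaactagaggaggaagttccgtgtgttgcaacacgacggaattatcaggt
Rpp25l (chr4:41713488-41713667, minus strand): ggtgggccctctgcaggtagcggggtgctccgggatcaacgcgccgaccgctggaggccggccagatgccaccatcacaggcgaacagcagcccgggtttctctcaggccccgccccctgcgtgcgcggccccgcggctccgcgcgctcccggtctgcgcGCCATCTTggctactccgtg

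Exosc2 held 3 such cores, all on the gene strand, with their first letters at -135, -79 and 22 from the start, which is counted as 0. The cold summit at -73 fell on the middle core, 2.5 bp from its centre. Among the 945 genes with a cold peak and 1 promoter in the table, 5 held at least 3 cores, and among the 13785 such genes without a cold peak 0 did. The count of 3 was singled out after the Exosc2 sequence had been seen. At Exosc10 the core lay 41.5 bp from the summit, between the starts of the gene.

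The small subunit processome had 3 of 21 genes with a cold peak (14.3%, 3.05 to 36.3). Wdr75, whose product belongs to the early complex that links transcription of the precursor RNA to its processing, carried 68 fragments (52.8 to 86.2; chromosome 1, 45795080 to 45795601). Its summit lay 194 bp after the start, and it ranked 39 by fragments among the cold entries. The letters ATGGCG in its promoter stood on the other strand with their first base at -147, far from the summit, and the searched window ended before the summit. The sequence under the summit was not analysed here.

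Utp20, which encodes a large scaffold protein of the processome, had 38 fragments (26.9 to 52.2; chromosome 10, 88826616 to 88826917). The summit lay 47 bp after the start, 35.5 bp from a core that begins at base 8. Wdr43, a partner of Wdr75 in the same early complex, had the fewest fragments of the set, 10 (4.8 to 18.4; chromosome 17, 71616174 to 71616459), with its summit 89 bp after the start. No listed peak lay at the other 18 genes, which were Nop9, Nop14, Rrp7a, Rrp9, Rrp12, Rrp36, Utp3, Utp4, Utp6, Utp11, Utp14a, Utp14b, Utp15, Utp18, Utp23, Utp25, Wdr3 and Wdr36.

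Among the genes of large subunit assembly 3 of 10 had a cold peak (30%, 6.67 to 65.2). At Rrp15, a factor gene of the large subunit precursor, the summit lay 94 bp after the start and carried 29 fragments (19.4 to 41.6; chromosome 1, 186749012 to 186749432). No core was found in its promoter, but the searched window ended before the summit. Bop1 encodes a scaffold of the complex it forms with Pes1 and Wdr12. The peak counted for it had 23 fragments (14.6 to 34.5; chromosome 15, 76477235 to 76477836) and lay 267 bp outside the gene. That summit was nearer to an end of the heat shock factor gene Hsf1, 154 bp inside it. The partner genes Pes1 and Wdr12 had no listed peak.

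Nop53, whose yeast counterpart brings the exosome to the large subunit precursor, had 15 fragments (8.4 to 24.7; chromosome 7, 15945899 to 15946154), 63 bp inside the gene. An end of Ehd2 was also within 1 kb, at 918 bp, while the nearest Ehd2 start was 21490 bp away. The remaining genes without a listed peak were Nop2, Nop16, Rrp1, Rrp1b and Rrp8.

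Of the snoRNP genes 2 of 7 had a cold peak (28.6%, 3.67 to 71.0), both from the box C/D type, which methylates RNA. Nop56, a core scaffold of that particle, had 15 fragments (8.4 to 24.7; chromosome 2, 130273863 to 130274219) at a summit at -417 bp from its start. For Fbl, the methyltransferase gene, the counted peak had 17 fragments (9.9 to 27.2; chromosome 7, 28179473 to 28179827) and lay 329 bp outside the gene. It stood inside the kinase gene Dyrk1b, 115 bp after the Dyrk1b start, and the Dyrk1b promoter held a core on the other strand at base 27. That summit was beyond the higher-coordinate end of Fbl, and no Fbl start was available here to measure from. Nop58 of box C/D and Dkc1, Nhp2, Gar1 and Nop10 of box H/ACA, the type that makes pseudouridine, had no listed peak.

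Among the RNase P and MRP genes, whose products process transfer RNA and ribosomal RNA, 1 of 7 had a cold peak (14.3%, 0.361 to 57.9). It was Rpp25l, the paralogue of the subunit gene Rpp25, with 16 fragments (9.15 to 26.0; chromosome 4, 41713306 to 41713632). The summit lay 58 bp after the start and 44.5 bp from a core on the other strand whose leftmost base is at 10. Rpp14, Rpp21, Rpp25, Rpp30, Rpp38 and Rpp40 had no listed peak, nor did the nucleolar chaperone genes Ncl and Npm1. The intervals of all roles with a peak overlap widely, so no order of roles can be read from these shares. They also contain 6.43%, the cold share of all protein-coding genes, except that of large subunit assembly, which starts at 6.67%.

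**Figure D2:**
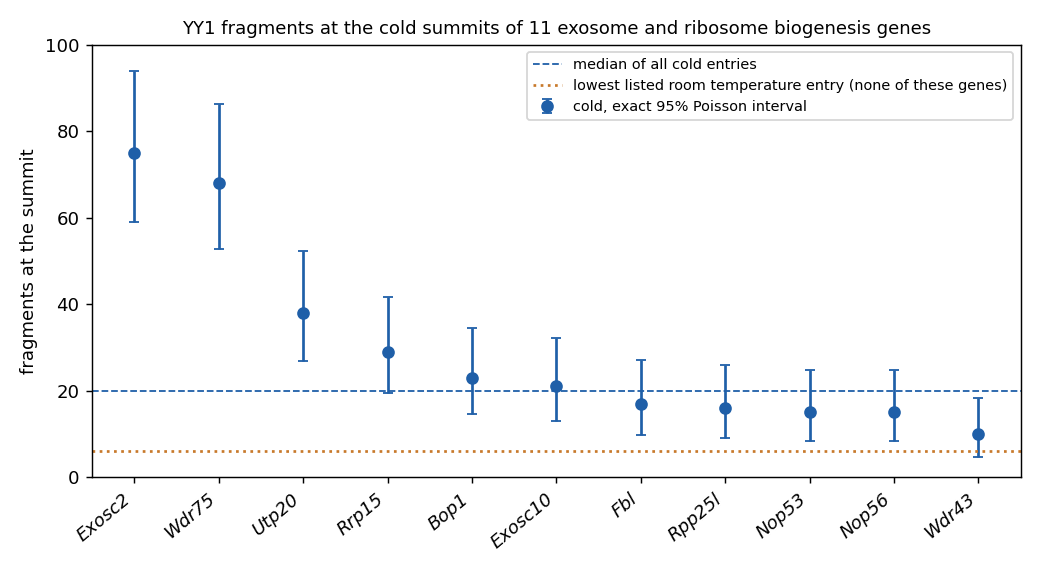
Fragments at the cold summit of the 11 genes with a peak, with exact 95% Poisson intervals. Exosc2 with 75 and Wdr75 with 68 fragments stand apart from the other 9, which carry 10 to 38; the dashed line is the median of all cold entries (20), and the dotted line is the lowest listed room temperature entry (6).

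As a group, the 11 peaks were of ordinary strength for the cold library. The median over the 11 genes was 21 fragments (quartiles 15.5 and 33.5), and over all 1406 cold-bound protein-coding genes it was 21 (15 and 30). Their median width of 355 bp compares with 367 bp over all such genes. The 11 summits lay a median of 94 bp from the nearer gene end and at most 372 bp from it, against a median of 182 bp over all genes with a cold peak. For 4 of the 11 genes (36.4%, 10.9 to 69.2) the summit was also within 1 kb of an end of another protein-coding gene, as for 37.8% of all genes with a cold peak. At Bop1 and Fbl that other end was the nearer one. At the remaining 7 genes, Exosc2, Wdr75, Utp20, Rrp15, Rpp25l, Nop56 and Wdr43, no second protein-coding gene was that near. For lncRNA genes, an end of A430105J06Rik lay within 1 kb of the Rrp15 summit and an end of Gm24576 within 1 kb of the Nop53 summit.

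The absence of room temperature entries was set beside the strength of the cold peaks, since strong cold entries were listed at room temperature more often than weak ones. Of the 31 cold entries with at least 75 fragments, 26 overlapped a room temperature entry (83.9%, 66.3 to 94.5), and Exosc2 was among the 5 that did not. Of the 39 entries with at least 68 fragments, 29 were listed in both conditions, and Wdr75 was among the other 10. That count includes the stronger entries. In the range of 50 to 69 fragments, which holds Wdr75, 34 of 54 cold entries had a room temperature counterpart (63.0%, 48.7 to 75.7). For the weaker peaks a missing entry was the usual case. In the range of 30 to 49 fragments, which holds Utp20, 57 of 209 cold entries had a room temperature counterpart (27.3%, 21.4 to 33.8). From 15 to 19 fragments, the range of Fbl, Rpp25l, Nop53 and Nop56, 12 of 279 did (4.3%). Sites without an entry have no measured value, and the weakest room temperature entry carried 6 fragments.

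**Figure D3:**
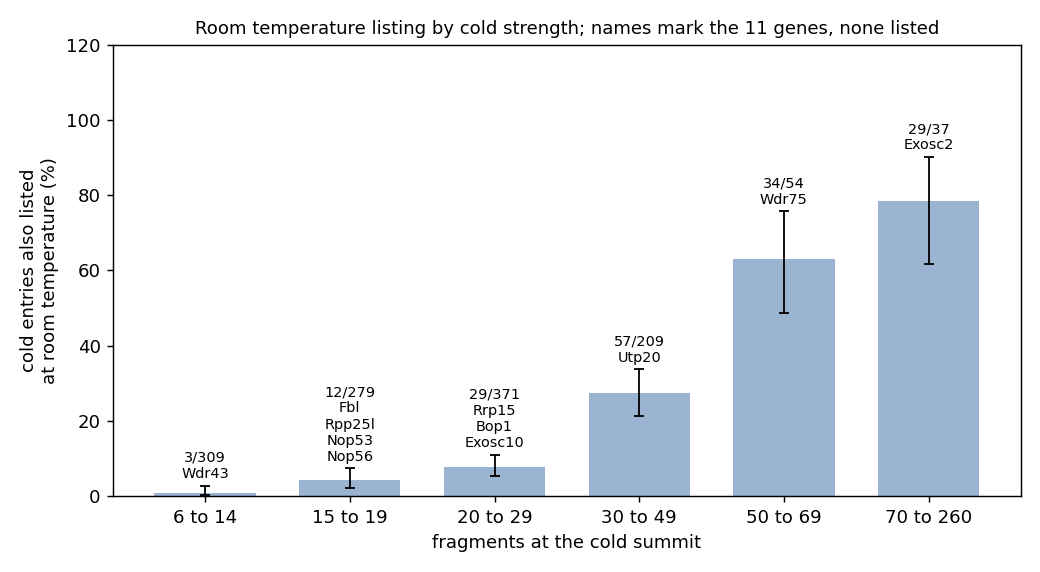
Percent of cold entries that overlap a room temperature entry, by fragments at the cold summit, with exact 95% intervals and counts. Gene names mark the range of each of the 11 genes, none of which was listed at room temperature; the share goes up to 78.4% (29 of 37) in the range that holds Exosc2.

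Promoters of 300 bases (250 before the start, 50 from it on) were available for 45 of the 57 genes and for 17491 of all protein-coding genes. For the 8 genes with both a cold peak and a promoter, 6 summits lay after the start and all 8 within 500 bp of it, with a median of 73.5 bp past it. Over all genes with a cold peak, 64.0% of summits lay after the start, 83.4% lay within 500 bp, and the median was 58 bp past it. The summits of Exosc2 and Utp20 were inside the searched window of their start, and that of Exosc10, at -203 from its further start, was inside the window of that start. The other 5 were outside. The table used gives no exons, so exonic and intronic summits were not told apart.

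**Figure D4:**
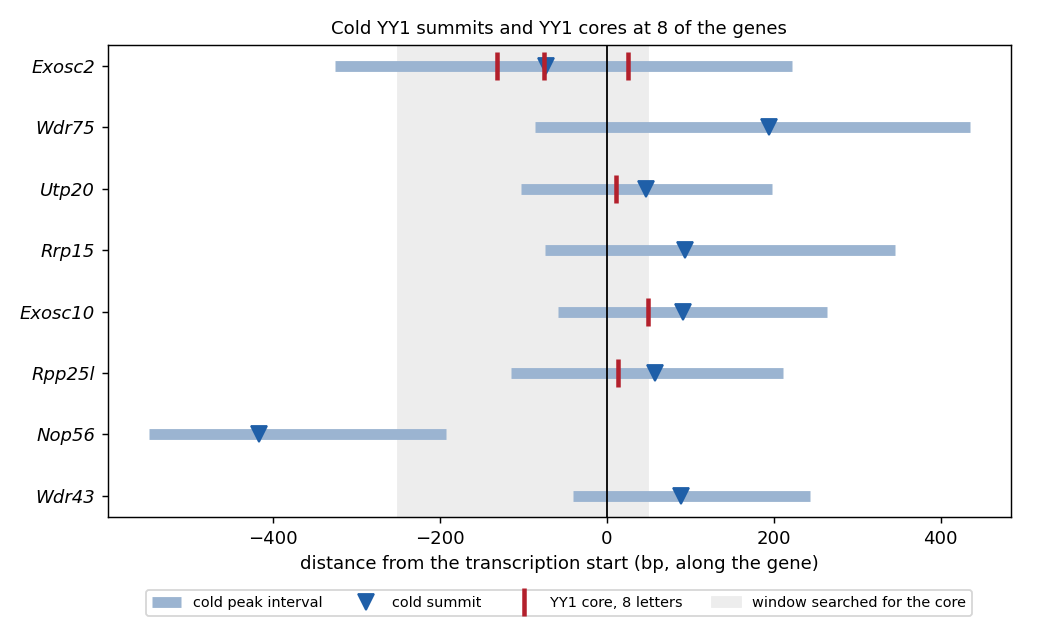
Position along the gene, in bp from the transcription start, of the cold peak interval (bar), its summit (triangle) and the 8-letter YY1 core (red tick) at 8 genes. The grey band is the searched window; for Exosc10 the window of a further start downstream was searched too. Cores lie 2.5 to 44.5 bp from the summits of Exosc2, Utp20, Exosc10 and Rpp25l.

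The core AANATGGC, searched on both strands, was present in 4 of the 8 promoters with a cold peak (50%, 15.7 to 84.3), at Exosc2, Exosc10, Utp20 and Rpp25l. Among the 37 genes of the set with a promoter and no cold peak, 1 held it, Rpp40 (2.7%, 0.0684 to 14.2). Over all protein-coding genes the shares were 45.5% with a cold peak (531 of 1168) and 4.74% without one (774 of 16323). Of genes with a room temperature peak, 63.9% held it (101 of 158). By single promoters, 6.37% of 21262 held the core. Where a gene had both the core and a cold peak, the core centre lay a median of 40.5 bp from the summit over all 531 genes. In 56.1% of those genes a core began within the 50 bases from the start on, as at Exosc2, Utp20 and Rpp25l, against 33.1% of the genes with a core and no cold peak. A match is a run of letters and not a shown binding site. In the set, the genes with a cold peak and a promoter but no 8-letter core were Wdr75, Rrp15, Wdr43 and Nop56. Their summits lay outside the searched window, so the sequence under those summits was not searched.

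**Figure D5:**
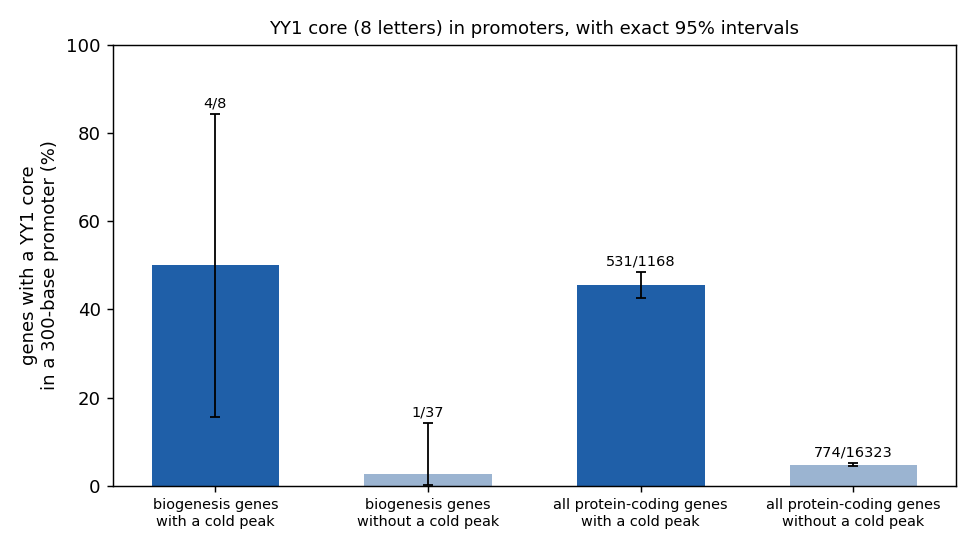
Percent of genes whose 300-base promoter holds the 8-letter YY1 core, with exact 95% intervals and counts, for the exosome and ribosome biogenesis genes with and without a cold peak and for all protein-coding genes likewise. The share is 50% against 2.7% in the set, and 45.5% against 4.74% over all genes.

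Shorter cores were more common. ATGGCG, which overlaps the 8-letter core, was in 5 of the 8 promoters with a cold peak and in 5 of the 37 without one (62.5% and 13.5%). Those 5 without a peak were Exosc6, Exosc7, Nop16, Rpp30 and Utp4. Over all protein-coding genes, ATGGCG was in 46.8% with a cold peak and in 9.93% without one. For ATGGC, contained in both longer forms, the counts were 5 of 8 and 11 of 37, and 38.8% of all single promoters held it. Its shares over all genes were 69.9% with a cold peak and 40.8% without one. Cores of ETS factors and of NRF1 were searched the same way. The ETS core CCGGAAG was in 2 of 8 and 9 of 37 promoters (25% and 24.3%), and in 11.6% of all single promoters. By gene, 23.2% of all genes with a cold peak and 12.2% of those without one held it. The NRF1 core TGCGCA was in 1 of 8 and 9 of 37 (12.5% and 24.3%), and in 9.74% of all promoters.

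Further genes of the same pathway, from 5 lists outside the set, gave 15 of 95 with a cold peak (15.8%) and 2 with a room temperature peak. Among small subunit factors 4 of 27 had a cold peak, among large subunit factors 4 of 28, and for RNA polymerase I and its factors 2 of 17. Exosome nucleases and cofactors had 5 of 19, and the other RNase P and MRP subunits 0 of 4. The strongest was at Rpf2, a large subunit assembly gene, beside an end of Gtf3c6, with 46 fragments after cold (33.7 to 61.4) and 11 at room temperature (5.49 to 19.7). The cold to room temperature ratio there was 4.18 (2.13 to 8.95). Ftsj3, a methyltransferase gene of pre-rRNA processing beside Psmc5, was the other gene in both lists. It had 28 fragments after cold, 11 at room temperature and a ratio of 2.55 (1.23 to 5.67). Another cold summit in the same Ftsj3 interval carried 13 fragments (6.92 to 22.2). Neither ratio was adjusted for depth or for the general difference in strength between the lists.

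The other 4 of the 6 genes with the most cold fragments were the methyltransferase gene Emg1 with 34 (23.5 to 47.5), Imp4 of the processome with 25 (16.2 to 36.9), and the exosome cofactor genes Zfc3h1 with 23 (14.6 to 34.5) and Zcchc8 with 22 (13.8 to 33.3). Of these lists' genes with promoters, 5 of 14 with a cold peak held the 8-letter core and 3 of 67 without one did. Emg1 shared its peak with Phb2, Imp4 with Ccdc115 and Zfc3h1 with Thap2, while Zcchc8 had none beside it.

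Other gene families had shares like that of the set or above it. Ddx and Dhx RNA helicase genes had 11 of 53 with a cold peak (20.8%, 10.8 to 34.1), and mitochondrial ribosomal protein genes 31 of 78 (39.7%, 28.8 to 51.5). At room temperature 2 of 53 and 2 of 78 genes of these families had a peak. No test sets the exosome and ribosome biogenesis genes apart from these families, and the 7.63-fold difference in list length lies under every count that compares the conditions. Tagging of open chromatin at gene starts, a known background of this assay, was not measured here, and its part in the peaks was not tested.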

How the data were processed

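YY1 occupancy was analysed in adipocytes from 1 cold library and 1 room temperature library. The submitters' processing notes name MACS2, BWA, SAMtools, deepTools and DESeq2 with mm10. Their settings and versions, and how duplicates and controls were treated, are not stated in the sources used here. For each entry of its own peak list a library has a summit, a score, a fold enrichment over background (ratio), a −log10 q-value and its −log10 p-value, all as deposited by the authors. The fragments at each summit were taken as the whole number that gives both fold (pseudocount 1) and Poisson p, within 0.0002 on the −log10 scale for all 1259 and 165 entries. The recovery was tested on values simulated with the same formula, which cannot check that the deposited values follow it. Gene assignment was tested on simulated summits, and the motif search was not tested. Genes and promoters are RefSeq tables of GRCm38.p6, with 57 of 57 symbols found and promoters for 45. Coordinates are 1-based. Shares carry exact Clopper-Pearson intervals, fragments exact Poisson intervals and ratios exact conditional intervals. No p-value was computed between conditions. PCR copies are not independent molecules. The genes, lists and motifs were chosen with earlier results of these data known. Every gene of the set with a peak is named, and of the other pathway genes the 6 with most cold fragments. Python 3.11.15, pandas 2.3.3 and scipy 1.17.1 were used. The alternatives varied the window, the gene assignment, the q threshold, the symbols, the overlap, the measure of strength and the motif.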

Additional observations from a re-analysis of the deposited data

How the results depend on the processing

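With 1 library per condition no library could be left out, and depth and missing replicates limit every comparison. No paired analysis was possible because there is only a single library on each side. The count of 11 genes with a cold peak became 2 with the 165 strongest cold entries and 7 with summits that belong to a single gene, a setting chosen after seeing the data; all genes then stood at 0.905% and 3.94%. Assigning every summit to the closest gene end alone gave 9, with all genes at 5.44%. At room temperature the count was also 0 within 3 kb and by the closest gene end, with all genes at 0.914% and 0.736%. Those were the settings there that could have added a gene. The stricter settings, and those for genes in both lists, could only give 0. Promoters with a YY1 core numbered 5, and became 10 with ATGGCG and 16 with ATGGC, which are shorter and match more often. By fold enrichment or −log10 q the median of the 11 genes exceeded 48.9% and 42.7% of genes with a cold peak, against 47.7% by fragments. The ratio between conditions at shared peaks has no value, since no gene of the set is in both lists.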
